A study of Mus musculus with 12 samples.

Results

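The COMMD family comprised the 10 mouse genes Commd1 to Commd10, found by their symbols among 41709 genes in the deposited tables, and all 10 passed the filter on low counts together with 13742 other genes. Commd2 was chosen by its higher total gene reads in Cre-positive cells, so its difference between genotypes is given as a description without a test, and the other 9 members were included because they carry the same domain. Poly(A) RNA was sequenced from bone marrow-derived dendritic cells (BMDCs), which had been grown from mouse bone marrow with GM-CSF for 10 days and isolated by magnetic beads as MHCII-positive cells. There were 12 libraries in 4 groups of 3, namely CD18fl/fl untreated, CD18fl/fl with LPS (100 ng/mL, 24 h in the labels), CD18-delta-CD11c untreated and CD18-delta-CD11c with LPS. All mice were homozygous for floxed exon 3 of Itgb2, the gene of the shared β2 integrin chain CD18. The floxed strain was made by gene targeting in embryonic stem cells. The CD18-delta-CD11c cells also carried a transgene in which the CD11c promoter drives Cre, and the CD18fl/fl cells are labelled Cre-negative. Exon 3 is therefore lost only after CD11c is switched on in a cell, and an age of the animals is not given in the sources used here.

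COMMD proteins share a C-terminal COMM domain through which they assemble with each other. Together with the coiled-coil proteins CCDC22 and CCDC93 and with DENND10 they form the CCC complex, which acts on endosomes with Retriever (VPS35L, VPS26C, VPS29), its cargo adaptor SNX17 and the actin-nucleating WASH complex to return receptors, integrins among them, to the cell surface. COMMD1, the founding member, takes part in copper handling and promotes ubiquitination and turnover of the NF-κB subunit RelA through a CUL2 ligase, and COMMD2 is regarded in the study as an inhibitor of NF-κB-dependent transcription.

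Commd2 (chr3:57551770-57559136, minus strand, GRCm39), Commd3 (chr2:18677195-18681042, plus strand) and Commd6 (chr14:101870417-101878122, minus strand) had the highest ratios between genotypes in both states, so the 250 bases before their annotated starts are shown. They were read from the GRCm39 genome on the gene's strand, 5′ to 3′. Capitals mark matches on either strand to CCAAT, which occurred in 35.6% of 13735 such windows of expressed genes, or to the GC box GGGCGG, which occurred in 50.7%.
Commd2, chr3:57559137-57559386, minus strand: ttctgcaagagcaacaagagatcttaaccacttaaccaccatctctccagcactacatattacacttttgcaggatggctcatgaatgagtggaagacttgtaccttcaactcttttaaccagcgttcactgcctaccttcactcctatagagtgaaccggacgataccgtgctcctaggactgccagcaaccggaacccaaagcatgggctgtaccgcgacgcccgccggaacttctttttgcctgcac
Commd3, chr2:18676945-18677194, plus strand: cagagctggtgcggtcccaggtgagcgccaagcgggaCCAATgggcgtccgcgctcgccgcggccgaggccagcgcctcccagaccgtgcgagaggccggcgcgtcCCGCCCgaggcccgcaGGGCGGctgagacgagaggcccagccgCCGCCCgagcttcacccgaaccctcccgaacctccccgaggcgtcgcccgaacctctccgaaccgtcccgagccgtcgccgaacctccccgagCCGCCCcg
Commd6, chr14:101878123-101878372, minus strand: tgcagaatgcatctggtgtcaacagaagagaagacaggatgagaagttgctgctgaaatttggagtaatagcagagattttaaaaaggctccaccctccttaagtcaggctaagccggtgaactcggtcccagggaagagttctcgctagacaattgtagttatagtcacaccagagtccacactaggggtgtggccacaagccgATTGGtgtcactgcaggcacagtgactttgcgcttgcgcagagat
The windows differed in composition. That of Commd3 held 76.8% G and C and 39 CG dinucleotides, against 50% and 10 at Commd2 and 49.2% and 6 at Commd6, and the medians over all windows were 57.6% and 13. CCAAT matched once at Commd3 and once at Commd6, the GC box matched 4 times at Commd3, and neither matched at Commd2. Over all 10 members CCAAT was present in 4 windows and the GC box in 4. The E box CACGTG was in 1 window of the family and in 7.98% of all windows, the ETS core CCGGAAG in 1 and 11.8%, TATAAA in 3 and 7.3%, and TGACGTC, most of the cAMP response element, in 0 and 4.18%. The κB consensus was in 0 of the 10 and in 4.45% of all. Motifs were counted on both strands, and different motifs could overlap. At Commd2 the last 12 bases of the window belong to an exon of longer Commd2 transcripts in GENCODE, and part of the window is also exon of the lncRNA gene Gm65960 on the opposite strand. At Commd3 48 bases lie in exons of another annotated gene, and at Commd6 0 bases lie in exons. Among the windows not shown, all 250 bases at Commd10 lie in exons of Gm49974, and 181 bases at Commd5 lie in annotated exons, mostly those of Gm63290. The remaining windows held 0 to 29 such bases.

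The libraries held 29689149 to 34037178 total gene reads, of which 95.1% to 96.2% were unique, and 3 reads corresponded to 0.0881 to 0.101 reads scaled to library depth (CPM). PCR reads carried no molecular identifiers, so counting floors cover counting error only. Levels are CPM scaled by TMM (edgeR) over the 12 libraries. The targeted gene Itgb2 was at 382, 420 and 379 CPM in untreated CD18fl/fl libraries and at 121, 163 and 190 CPM in untreated CD18-delta-CD11c libraries. With LPS it was at 167, 171 and 267 CPM against 114, 89.7 and 119 CPM. The genotypes did not overlap in either state (edgeR with block adjusted p = 0.00392 untreated and 0.0201 with LPS, 0.0887 and 0.428 without the block), and the reads left include those from exons outside the floxed one. The MHCII and dendritic cell markers were present in every library (7 of 7 pass the filter). The libraries numbered replicate 3 stood apart. Their summed B-cell markers were at 0.356 to 0.561 CPM against 5.43 to 93.8 CPM in replicates 1 and 2, their granulocyte markers at 8.61 to 12.7 against 38.2 to 969 CPM, and their mast cell and basophil markers at 15.5 to 116 against 0.223 to 8.01 CPM, nearly all of it Cpa3. The dendritic cell markers went both ways. Flt3 was at 0.227 to 2.25 CPM in replicate 3 against 9.22 to 35.5 CPM in replicates 1 and 2. Itgax was at 284.5 to 680 CPM in replicate 3 against 30.8 to 210 CPM, and the other markers of this list overlapped. The 3 T-cell markers summed to 0.867 to 26.6 CPM and the 5 macrophage markers to 446 to 1312 CPM over all libraries, and both lists differed between some of the groups compared. In bulk RNA, fewer cells of a type and less RNA per cell cannot be told apart, and nothing in the labels says that same-numbered or different libraries came from separate animals, so p-values measure the spread between these libraries, which may be technical.

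**Figure D1:**
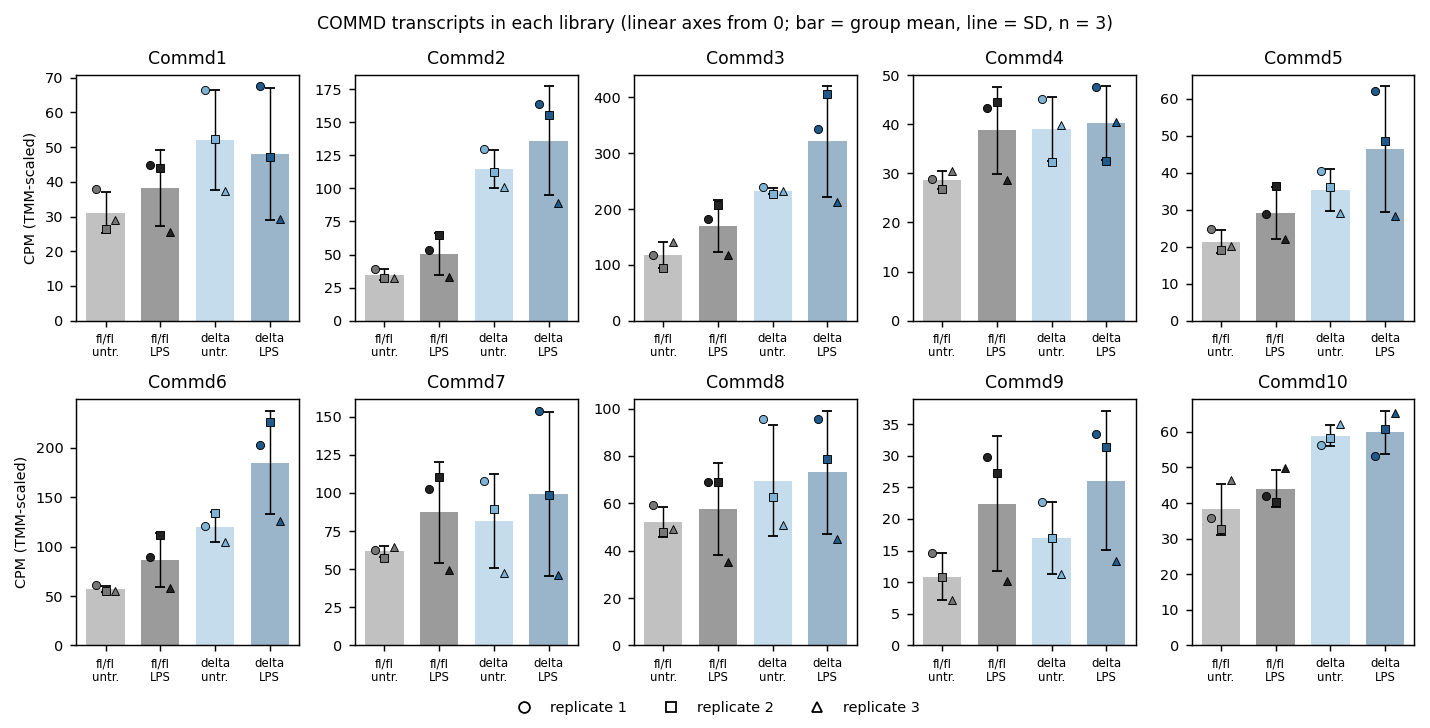
TMM-scaled CPM of each COMMD gene (y axis, linear from 0) in the 4 groups (x axis), with circles, squares and triangles for replicates 1, 2 and 3, bars for the mean and lines for the SD of 3 libraries. Commd2 lies at 32.2 to 64.5 CPM in the CD18fl/fl libraries and at 88.8 to 164 CPM in the CD18-delta-CD11c libraries.

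Commd2 was at 39.4, 32.4 and 32.2 CPM in untreated CD18fl/fl BMDCs and at 130, 112 and 101 CPM in untreated CD18-delta-CD11c BMDCs. With LPS the values were 53.0, 64.5 and 32.9 CPM against 164, 155 and 88.8 CPM. Every CD18-delta-CD11c library thus lay above every CD18fl/fl library, the lowest of the former (88.8) being replicate 3 with LPS and the highest of the latter (64.5) replicate 2 with LPS. The group means were 34.7 ± 4.12 against 115 ± 14.5 CPM untreated and 50.2 ± 16.0 against 136 ± 41.2 CPM with LPS (SD, n = 3). On the log2 scale the edgeR difference was 1.78 (SE 0.203) untreated and 1.41 (SE 0.351) with LPS, and the 3 same-numbered pairs gave 1.72, 1.79 and 1.65 untreated and 1.63, 1.27 and 1.43 with LPS. These values chose the gene and are a description. With a replicate block and an offset for exon length they were 1.79 and 1.49, and with scaling to library size alone 1.39 and 1.17. All Commd2 reads (1206 to 4046 per library) were unique to the gene, 50.7% to 64.2% of its exon reads spanned an exon junction, and at most 2.39% lay in introns.

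Commd2 was next set beside the genes around it, to see whether neighbours had the same profile. Of 16 other genes within 500 kb, 4 passed the filter. Rnf13, which encodes a ubiquitin ligase of endosomal membranes and lies 84347 bases away, was at a mean of 178 CPM in untreated CD18-delta-CD11c and 120 CPM in CD18fl/fl BMDCs (log2 difference 0.62, SE 0.251, edgeR adjusted p = 0.283). With the replicate block its adjusted p by edgeR was 0.0346 untreated and 0.147 with LPS. Pfn2, a profilin, was at 8.10 against 3.94 CPM untreated, with an edgeR adjusted p of 0.436 without and 0.0615 with the block. Wwtr1 and Tm4sf1 had means under 1 CPM and no adjusted p below 0.05. The genes with the highest Pearson r with Commd2 over log2 CPM of the 12 libraries were Ciao2a (0.987), Mrps23 (0.983), Atp5h (0.982), Atp5l (0.980) and Myl6 (0.980), which encode a factor of cytosolic iron-sulfur assembly, a mitochondrial ribosomal protein, 2 ATP synthase subunits and a myosin light chain. The libraries share depth, replicate number and genotype, and 223 genes had an r above 0.9. Commd2 was chosen for its difference between genotypes, so a high r partly restates a gene's own genotype difference and is a description. Among the other members r was highest for Commd6 (0.954, rank 51), Commd3 (0.940, rank 87) and Commd5 (0.908, rank 196), and lowest for Commd7 (0.532). With scaling to library size the same members were highest, and Commd4 was lowest (-0.07).

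Levels between genes were compared as CPM per kb of exon length. In untreated CD18fl/fl BMDCs Commd3, which with COMMD8 is known as an adaptor in chemokine receptor signalling of B cells, was highest (123 ± 24.7 CPM per kb, SD, n = 3). It was followed by Commd6 (52.3 ± 2.93) and Commd4 (30.2 ± 1.97), and these 3 neighbours in the order did not overlap. Commd5 (20.2 ± 2.93) and Commd7 (18.8 ± 1.12) overlapped, and so did each neighbouring pair among Commd8 (13.0 ± 1.56), Commd2 (11.6 ± 1.38), Commd9 (9.14 ± 3.13) and Commd10 (8.43 ± 1.58). Commd1 was lowest at 5.69 ± 1.10 CPM per kb. Commd3, Commd6 and Commd1 kept these ranks in all 4 groups, although Commd10 and Commd1 overlapped in LPS-treated CD18-delta-CD11c BMDCs. Commd2 was 7th in both CD18fl/fl groups, 4th in untreated CD18-delta-CD11c BMDCs (38.3 ± 4.85) and 3rd with LPS (45.5 ± 13.8), where it overlapped Commd5 and did not overlap Commd6.

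**Figure D2:**
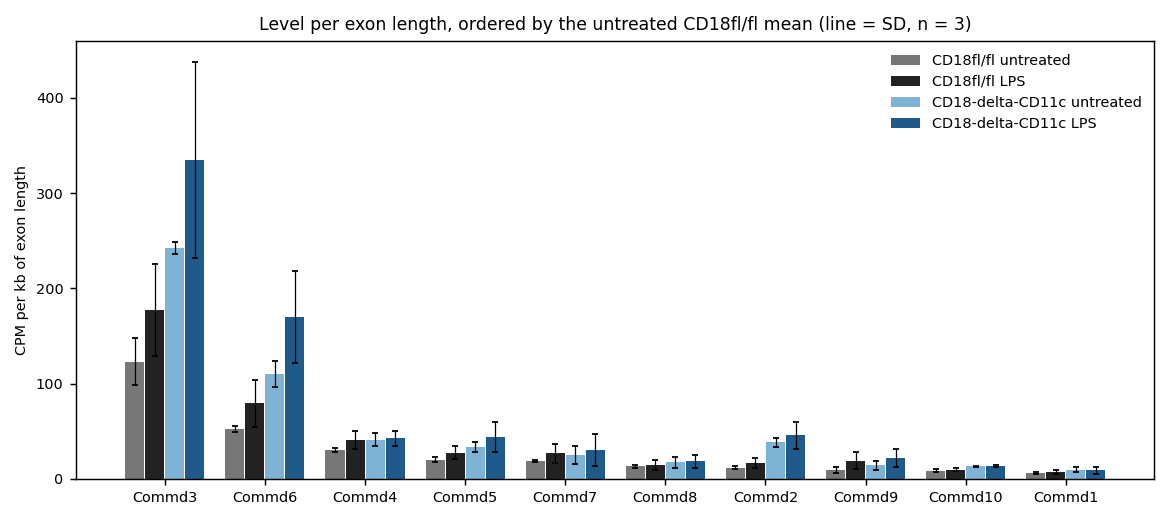
Mean CPM per kb of exon length (y axis, linear from 0) of the COMMD genes (x axis), ordered by the untreated CD18fl/fl mean, with a bar per group and lines for the SD of 3 libraries. Commd3 (123 to 335 CPM per kb) and Commd6 (52.3 to 170) are first and second in every group.

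The order depends on reads that can be assigned. Commd5 (chr15:76784110-76785505, plus strand) overlaps the last exon of the readthrough gene Gm49527 on the same strand, and only 6.92% to 14.3% of its 753 to 1533 reads per library were unique. From unique reads its level in untreated CD18fl/fl BMDCs was 2.33 instead of 20.2 CPM per kb, the lowest of the family. Commd1 (chr11:22846136-22932382, minus strand) overlaps the gene Commd1b on the same strand. Commd1b had 987 to 2204 total reads in a library, of which at most 12 were unique. Commd1 had 907 to 1867 total reads, and 85.7% to 94.3% of them were unique. Commd5 values are therefore uncertain. Reads of the other 8 members were all unique.

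The first comparison asked how the other members stood in CD18-delta-CD11c against CD18fl/fl BMDCs without LPS. All 9 had log2 differences above 0, from 0.46 (Commd7) to 1.13 (Commd6), with a median of 0.69, and over all 12876 genes tested the median was -0.05 and 47.3% were above 0. By edgeR without a replicate block 0 of the 9 members passed an adjusted p of 0.05, as did 0% of all genes tested. At an unadjusted p under 0.05 there were 6 of the 9 by edgeR (10.8% of all genes tested, higher), and DESeq2 called 3 of the 9 (higher in 5.55% of all genes). With the replicate number as a block, 6 of the 9 were called higher and none lower, against 12.1% called higher of all genes tested. These 6 were Commd1, Commd3, Commd5, Commd6, Commd9 and Commd10. Macrophage markers also differed here. Adgre1, which encodes the macrophage antigen F4/80, was at 408, 491 and 434 CPM in CD18fl/fl against 234, 216 and 357 CPM in CD18-delta-CD11c BMDCs, while the other 4 markers and the sum of the list (864 to 1312 against 816 to 910 CPM) overlapped. Of the dendritic cell and MHCII markers H2-Ab1 was higher without overlap, at 4614 to 6567 CPM in CD18fl/fl against 8148 to 13259 CPM in CD18-delta-CD11c BMDCs. Cd74 was lower without overlap (4627 to 5483 against 3123 to 4446 CPM), and the summed list overlapped. Cd3e of the T-cell list was also lower, at 0.111 to 0.668 CPM in CD18fl/fl against 0 to 0.0334 CPM in CD18-delta-CD11c BMDCs. The latter values lie below the level of 3 reads, and Cd3d, Cd3g and the summed T-cell list overlapped. The part of cell composition in the differences of the members was not tested.

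Commd6 was at 60.7, 55.0 and 55.2 CPM in CD18fl/fl and at 120, 134 and 104 CPM in CD18-delta-CD11c BMDCs. The groups did not overlap, and the log2 difference was 1.13 (SE 0.189, edgeR adjusted p = 0.0887, with the block 0.00377). Commd3 was at 118, 94.4 and 142 CPM against 239, 227 and 232 CPM. Its log2 difference was 1.04 (SE 0.204), with an edgeR adjusted p of 0.1 without and 0.00513 with the block, and again the groups did not overlap. Commd10, known from macrophages for a part in phagolysosome maturation, was at 35.8, 32.7 and 46.4 CPM against 56.4, 58.2 and 62.1 CPM (log2 0.68, edgeR adjusted p = 0.176, with the block 0.0178). Commd1 was at 37.9, 26.5 and 29.1 CPM against 66.5, 52.3 and 37.4 CPM. Here replicate 3 of CD18-delta-CD11c fell below replicate 1 of CD18fl/fl, and the edgeR adjusted p was 0.229 without and 0.0174 with the block. Commd9, which is known for a role in Notch receptor trafficking and had the fewest reads of the family, was at 14.7, 10.8 and 7.19 CPM against 22.7, 16.9 and 11.3 CPM. The groups overlapped while each CD18-delta-CD11c library exceeded its same-numbered partner, and the edgeR adjusted p was 0.389 without and 0.0279 with the block. Commd5, with mostly shared reads, was at 24.9, 19.1 and 20.1 CPM against 40.4, 36.2 and 29.2 CPM (edgeR adjusted p = 0.175, with the block 0.0143).

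The remaining members Commd4, Commd7 and Commd8 did not pass under either fit. Commd4 was at 28.9, 26.7 and 30.5 CPM against 45.2, 32.2 and 39.7 CPM, without overlap and with an edgeR adjusted p of 0.0513 with the block. Commd8 was at 59.2, 48.0 and 49.0 CPM against 95.7, 62.5 and 50.7 CPM, and Commd7 at 62.4, 57.6 and 64.8 CPM against 108, 89.2 and 47.4 CPM. For Commd7 replicate 3 went the other way from replicates 1 and 2. In all, 5 of the 9 (Commd3, Commd4, Commd5, Commd6, Commd10) had groups without overlap, against 11.7% of all genes, and each of these gave p = 0.1 in a two-sided exact permutation test, the smallest that 3 against 3 libraries allow. In 8 of the 9 the difference was above 0 in all 3 same-numbered pairs, against 24% of all genes.

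The genotype difference varied with exon length over all genes, and this touches the members unequally. Genes tested with under 1500 bases of exon had a median log2 difference of 0.59 without the block, those of 1500 to 3000 bases 0.12, those of 3000 to 6000 bases -0.21 and longer ones -0.35. With the block 38.6%, 15.6%, 6.68% and 2.33% of these classes were called higher. Commd3, Commd4, Commd5, Commd6 and Commd9 have 950 to 1191 bases, Commd2 has 2992, and Commd1, Commd7, Commd8 and Commd10 have 3285 to 5472. With an offset for exon length beside the block, 3 of the 9 members were called (7.58% of all genes higher), namely Commd1 (log2 1.00, edgeR adjusted p = 0.0162), Commd10 (0.87, 0.0166) and Commd6 (0.55, 0.0401). Commd3 then had a log2 difference of 0.42 (edgeR adjusted p = 0.0832), Commd9 0.18 (0.522), Commd5 0.19 (0.411) and Commd4 -0.15 (0.545). The part of length in the differences of the single members was not tested.

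**Figure D3:**
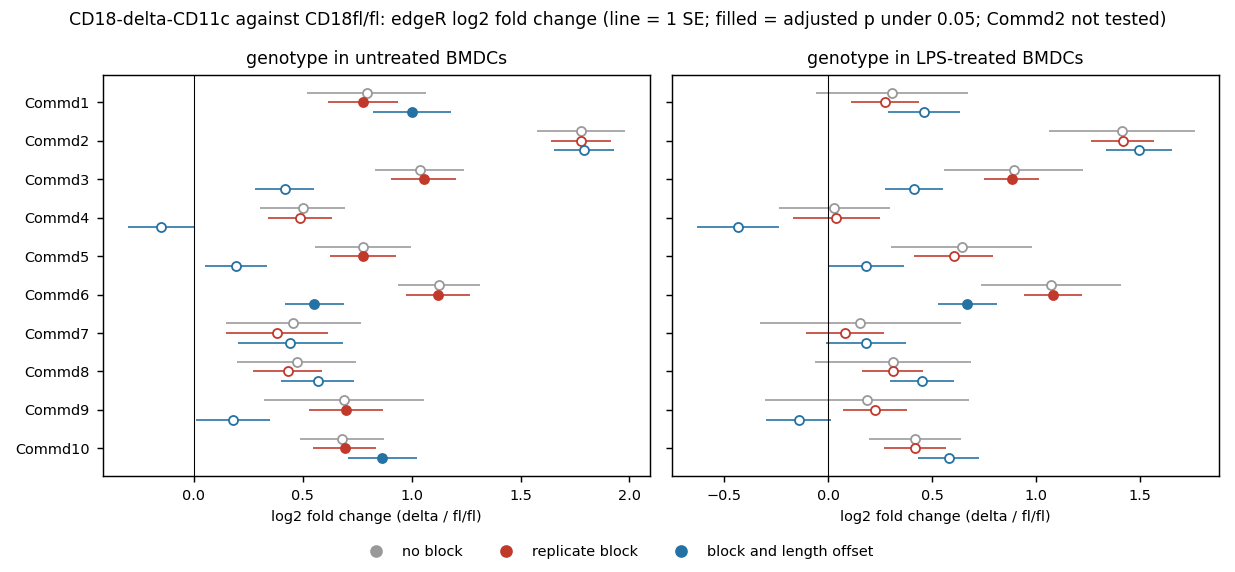
Log2 fold change of CD18-delta-CD11c against CD18fl/fl (x axis) for each COMMD gene (y axis), untreated (left) and with LPS (right), from edgeR without a block (grey), with a replicate block (red) and with a block and length offset (blue). Lines are 1 SE and filled points have an adjusted p under 0.05. Commd2, which was not tested, lies at 1.78 and 1.41 without a block, and Commd4 moves from 0.50 to -0.15 untreated when the length offset and block are used.

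With LPS, 0 of the other 9 members were called by edgeR without the block (0% of all genes), 2 of the 9 had an unadjusted p under 0.05 (6.19% of all genes, higher), and DESeq2 called 0 (2.28% of all genes). All 9 had log2 differences above 0, against 43.1% of all genes. With the block, 2 of the 9 were called higher against 6.98% of all genes. Exon length mattered here too. Of genes with under 1500 bases of exon, the class of 5 members, 76.0% were above 0 without the block and 23.7% were called higher with it. With the length offset beside the block 7 of the 9 were above 0, and Commd4 (-0.43) and Commd9 (-0.14) were below. The summed macrophage markers were at 791 to 972 CPM in CD18fl/fl and at 446 to 638 CPM in CD18-delta-CD11c BMDCs with LPS, without overlap, and 2 of the 5 (Adgre1 and Csf1r) were lower without overlap. Of the dendritic cell and MHCII markers Cd74 was lower without overlap, and their sum overlapped. The part of cell composition in the result was not tested. Commd6 was at 89.8, 112 and 57.9 CPM in CD18fl/fl against 203, 226 and 126 CPM in CD18-delta-CD11c BMDCs. The groups did not overlap (log2 1.07, SE 0.338, edgeR adjusted p = 0.428, with the block 0.0083). Commd3 was at 183, 208 and 118 CPM against 344, 407 and 213 CPM, also without overlap (log2 0.89, SE 0.336, edgeR adjusted p = 0.481, with the block 0.0118). Commd10 was the third member whose groups did not overlap, at 42.0, 40.2 and 49.9 CPM against 53.3, 60.9 and 65.3 CPM (edgeR adjusted p with the block = 0.119), and groups without overlap were found in 9.51% of all genes. With the length offset beside the block Commd6 was called (log2 0.67, edgeR adjusted p = 0.0334, 5.07% of all genes higher) and Commd3 was not (0.41, 0.120). The difference was above 0 in all 3 pairs in 7 of the 9, against 23.1% of all genes. The remaining members had log2 differences from 0.03 (Commd4) to 0.64 (Commd5), and their groups overlapped.

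LPS itself was the next comparison, and here Commd2 could be tested. In CD18fl/fl BMDCs all 10 members had a log2 difference above 0, from 0.15 (Commd8) to 1.05 (Commd9), with a median of 0.48 against -0.02 over all genes tested, 49.2% of which were above 0. None of the 10 was called by edgeR without the block (2.06% of all genes higher), with the block (6.33%) or by DESeq2 (8.49% higher), and none had an unadjusted p under 0.05 without the block (12.4% of all genes, higher). The T-cell markers moved with this comparison, from a sum of 8.37 to 20.8 CPM untreated to 0.867 to 2.75 CPM with LPS, without overlap. Of the macrophage markers Csf1r and C1qa were lower and Adgre1 was higher without overlap, while the summed list overlapped. Of the dendritic cell and MHCII markers Cd74 was lower and Zbtb46 higher without overlap, and their sum overlapped. The part of cell composition was not tested. In all 10 the groups overlapped, against 13.6% of genes that were higher without overlap. Commd2 differed by 0.43, 1.00 and 0.03 on the log2 scale in pairs 1, 2 and 3 and Commd3 by 0.63, 1.14 and -0.26. Over the 10 members the median of pair 1 was 0.50, that of pair 2 was 0.93 and that of pair 3 was -0.03. Without LPS-treated CD18fl/fl replicate 3, edgeR called 5 of the 10 higher (Commd2, Commd4, Commd6, Commd7 and Commd9, adjusted p 0.0237 to 0.0429). In this fit 3314 of the 12744 genes tested were called, higher and lower together. The share called higher alone was not kept for it, so the 5 members have no matching share. With replicates 1 and 2 alone in both arms 7 of the 10 were called, against 23.2% of all genes higher. Commd9 was at 14.7, 10.8 and 7.19 CPM untreated and 29.8, 27.3 and 10.2 CPM with LPS, so each library with LPS exceeded its partner (edgeR adjusted p = 0.224, with the block 0.0557, with block and length offset 0.0475, where 7.07% of all genes were called higher). In 5 of the 10 all 3 pairs were above 0, against 25.5% of all genes.

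In CD18-delta-CD11c BMDCs 7 of the 10 members had a log2 difference above 0 with LPS, from -0.17 (Commd1) to 0.57 (Commd6), with a median of 0.21 against -0.01 over all genes, 49.1% of which were above 0. None was called by edgeR without the block (2.23% of all genes higher) or with it (10.2%), none by DESeq2 (6.75%), and none had an unadjusted p under 0.05 without the block (10.7% of all genes, higher). The summed macrophage markers went from 816 to 910 CPM untreated to 446 to 638 CPM with LPS, without overlap. Of the 5 markers Csf1r and C1qa were lower without overlap, and the others overlapped. The part of cell composition was not tested. In all 10 the groups overlapped (14.8% of all genes were higher without overlap). Commd6 was above its partner in all 3 pairs, by 0.76, 0.75 and 0.28 on the log2 scale (edgeR adjusted p = 0.282, with the block 0.0753), as 3 of the 10 were, against 30.1% of all genes. Commd2 differed by 0.33, 0.47 and -0.19. Pair 3 again lay lowest for most members, with a median of -0.04 against 0.42 and 0.38 in pairs 1 and 2. The difference in LPS effect between genotypes lay between -0.42 and 0.03 on the log2 scale over the other 9 members, and for these 9 edgeR gave adjusted p of 0.9999, with 0 at an unadjusted p under 0.05 and 0 calls by DESeq2. Of all 13752 genes tested for this difference edgeR called 0 and DESeq2 called 1. By edgeR only 48 genes above 0 and 49 below had an unadjusted p under 0.05, so the members match nearly all genes here.

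**Figure D4:**
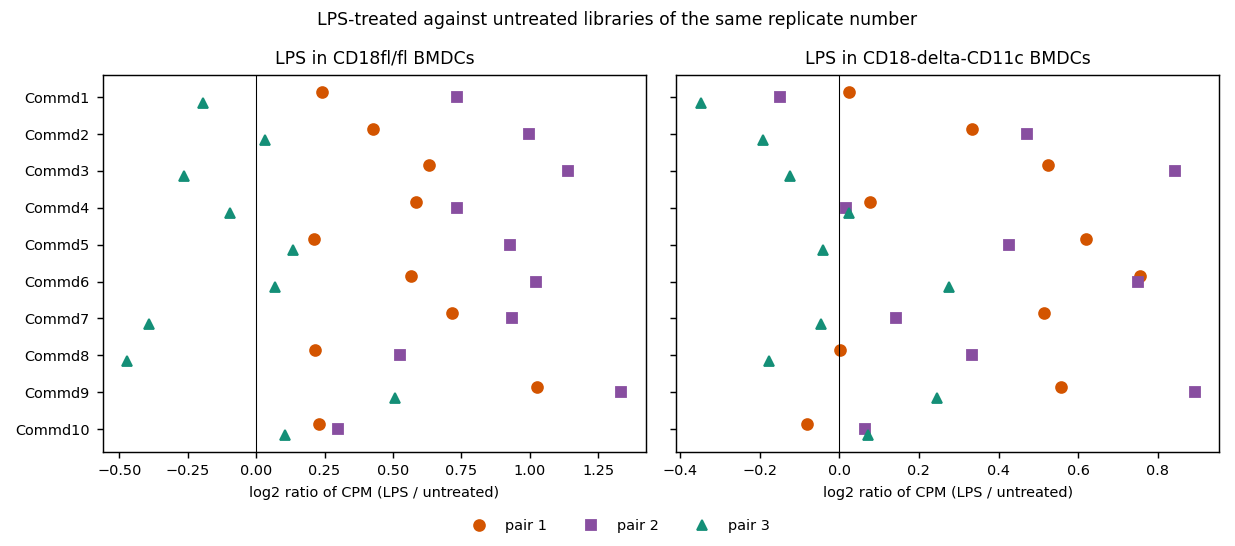
Log2 ratio of CPM with LPS to CPM without LPS (x axis) for each COMMD gene (y axis) in libraries of the same replicate number, for CD18fl/fl (left) and CD18-delta-CD11c (right). In CD18fl/fl BMDCs all 10 genes are above 0 in pairs 1 and 2 and 5 of 10 in pair 3.

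The 44 genes of the lists of COMMD partners were all tested. In untreated BMDCs 0 passed between genotypes by edgeR without the block, and with the block 7 of the 44 were higher and 7 lower in CD18-delta-CD11c cells, against 12.1% higher and 8.16% lower of all genes tested. The counts of the single lists stand beside the same shares. Of the CCC complex 0 of 4 were called, although 3 of the 4 had log2 differences above 0 (median 0.26). The fourth gene of this list was Vps35l (-0.30), which is also counted under Retriever. Ccdc22, which stabilizes COMMD proteins, was at a mean of 29.8 against 25.4 CPM. Of Retriever 2 of 4 were higher. Vps29, a subunit of both Retriever and retromer, was at 232, 229 and 259 CPM against 102, 79.4 and 105 CPM (log2 1.39, SE 0.142, edgeR with block adjusted p = 0.00298), without overlap. Vps26c was at 337, 298 and 199 CPM against 180, 168 and 119 CPM (log2 0.88, SE 0.130, edgeR with block adjusted p = 0.00568). The scaffold Vps35l, at 27.8, 26.2 and 30.6 CPM against 35.4, 37.7 and 35.0 CPM, was not called. With the length offset beside the block, Vps29 (1.41) and Vps26c (0.83) were again called.

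Of the WASH complex 1 of 5 was called, Washc3, at a mean of 64.9 against 38.8 CPM (edgeR with block adjusted p = 0.00901), and with the length offset it was not. Of retromer and its sorting nexins 3 of 9 were higher (Vps29, the nexin Snx2 with a log2 difference of 0.83, and the retromer scaffold Vps35 with 0.58) and 1 lower (Snx27, -0.81). Of the COMMD1 ubiquitin ligase partners 2 of 7 were higher. Eloc, the elongin C that links substrate receptors to cullins, was at 216, 190 and 183 CPM against 96.5, 75.2 and 81.4 CPM (log2 1.28, SE 0.135, edgeR with block adjusted p = 0.00303), and the RING protein Rbx1 had a log2 difference of 0.63. Of the NF-κB subunits and inhibitors 2 of 11 were lower and none higher, namely Rela (60.3, 73.8 and 35.5 CPM in CD18fl/fl against 33.8, 38.8 and 25.7 CPM, log2 -0.69, edgeR with block adjusted p = 0.0234) and Ikbkg, the regulatory subunit of the IκB kinase (-0.51). For Rela the groups overlapped through replicate 3 of CD18fl/fl. Of the receptors carried by CCC and Retriever 4 of 6 were lower, namely Notch2 (log2 -0.95, edgeR with block adjusted p = 0.00771), Atp7a (-0.87), Itga5 (-0.64) and Lrp1 (-1.15), the copper pump, an integrin chain and a lipoprotein receptor being the last 3 in this order. With the length offset beside the block the lists held 6 genes that were higher and 5 that were lower (7.58% and 4.65% of all genes). Washc3, Rbx1, Snx27, Ikbkg, Itga5 and Atp7a were then not called, while Rel was higher and Nfkbia and Elob lower.

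With LPS, 5 of the 44 were higher and 2 lower between genotypes with the block (6.98% higher and 3.16% lower of all genes), and 0 without it. Vps29 (log2 1.31, edgeR with block adjusted p = 0.00641), Eloc (1.12), Vps26c (0.71), Washc3 (0.66) and Snx2 (0.59) were higher, and the integrin chains Itgb1 (-0.62) and Itga5 (-0.77) were lower. All 5 that were higher had also been called higher untreated. With the length offset beside the block 3 were higher (Vps29, Eloc, Vps26c) and 0 lower, against 5.07% and 2.17% of all genes. For LPS, edgeR with the block called 5 of the 44 in CD18fl/fl (4 higher, 1 lower) and 8 in CD18-delta-CD11c BMDCs (6 higher, 2 lower). Without the block it called 0 of the 44 in either genotype, where 2.06% and 2.23% of all genes were called higher. Of all genes tested with the block, LPS gave 6.33% higher and 6.43% lower in CD18fl/fl, and 10.2% higher and 9.93% lower in CD18-delta-CD11c BMDCs. The NF-κB subunit Rel rose by 1.19 and 1.14 on the log2 scale in the 2 genotypes, the inhibitor Nfkbib by 1.65 and 1.52, Eloc by 1.14 and 1.01, and Itga5 by 1.70 and 1.62. Ccdc22 fell by 1.18 in CD18-delta-CD11c BMDCs (edgeR with block adjusted p = 0.0123), from 34.2, 26.3 and 28.8 to 19.8, 9.39 and 13.3 CPM. In CD18fl/fl BMDCs it went from 26.8, 24.8 and 24.5 to 15.0, 17.1 and 10.95 CPM without passing the test, and no gene of the lists passed the test of the difference between these effects. The 2 genotype comparisons use separate libraries, while each LPS comparison shares its untreated and LPS groups with them.

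**Figure D5:**
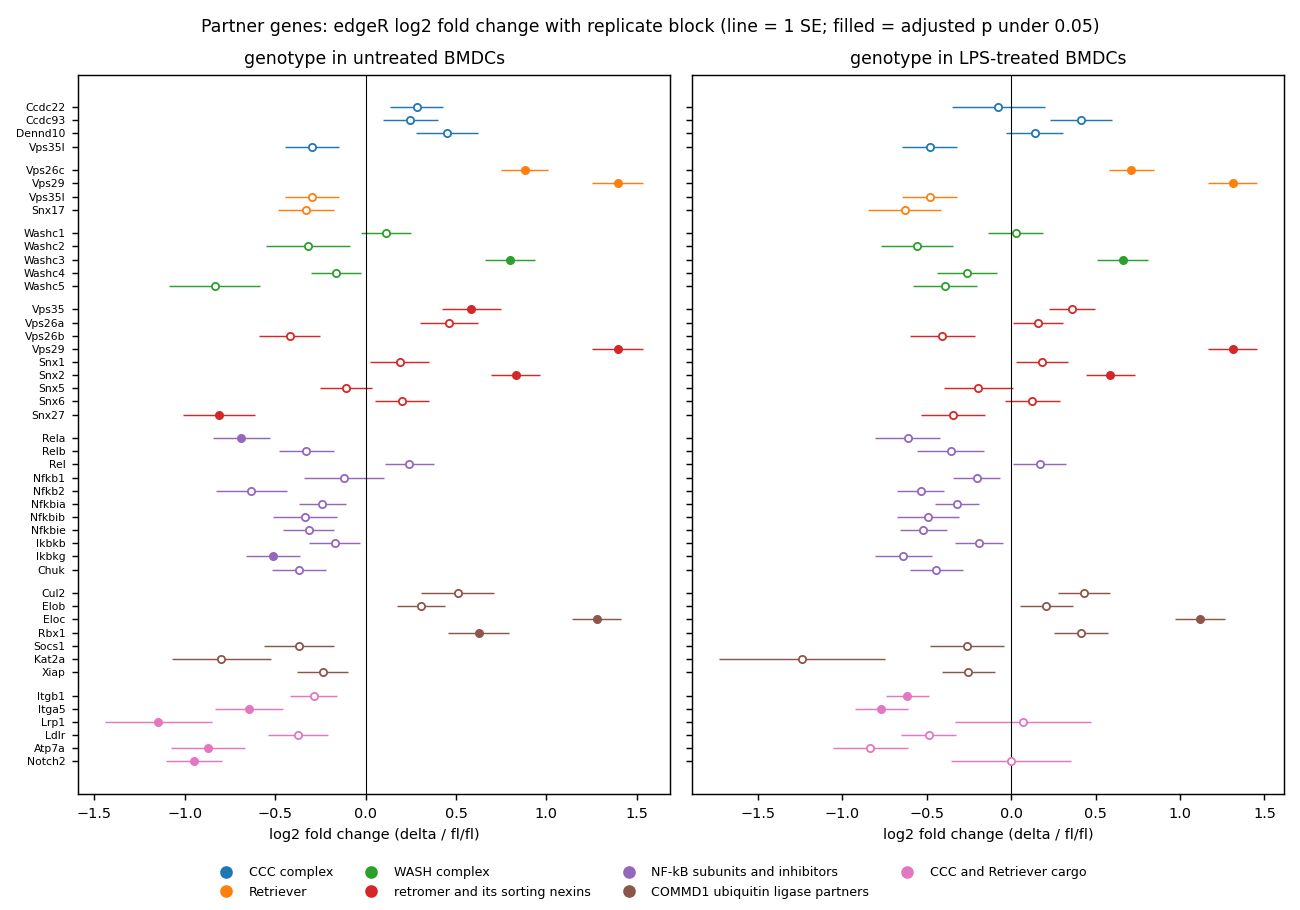
Log2 fold change of CD18-delta-CD11c against CD18fl/fl (x axis, edgeR with replicate block, lines 1 SE) for the partner genes (y axis, coloured by list), untreated (left) and with LPS (right), with filled points at an adjusted p under 0.05. Vps29 (1.39 and 1.31) and Eloc (1.28 and 1.12) lie highest in both states.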

How the data were processed

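BMDC poly(A) libraries (NEBNext kits, 15 PCR cycles, 59-base single-end HiSeq reads) were mapped by the authors with CLC Genomics Workbench, and the deposited tables give counts per gene (total, unique, exon, junction and intron reads) without normalization. The deposited table of each sample also holds exon lengths. The submitters' processing notes name GRCm38 and the study's methods GRCm39, and gene coordinates in the files match GRCm39. Whether strand was used in counting is not given in the sources used here.

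Groups and replicate numbers came from the sample titles. Total gene reads were tested with edgeR 4.0.16 (R 4.3.3; quasi-likelihood, TMM, filterByExpr with a minimum count of 10, Benjamini-Hochberg over all genes tested, threshold 0.05) on the 6 libraries compared, or 12 for the interaction. DESeq2 1.42.0 was an alternative. SE is the log2 difference divided by the square root of F. CPM used all 12 libraries, and log2 CPM a prior count of 2. The length offset is a lowess curve (span 0.3) fitted in each library on log2 exon length. The value fitted is a gene's log2 CPM minus its mean over the libraries of the fit. Same-numbered libraries deviated together from their group means (r of 0.265 to 0.716 in all 12 pairs). Replicate 1 against replicate 2 also gave r of 0.154 to 0.334, and replicate 3 against either gave -0.571 to -0.321. For LPS in CD18fl/fl, 1 against 2 (0.278) exceeded 2 against 2 (0.265). The correlations thus set replicate 3 apart more than they separate the pairing of replicates 1 and 2. The replicate number was treated as pairing the libraries, and blocked values stand beside results they change. The pairing rests on the numbers in the titles. Named genes were all 10 members, Itgb2, list genes past the threshold in the block fit (up to 3 per list), neighbours of Commd2 within 500 kb and the 5 genes of highest r with it. Some further list genes (Ccdc22, Vps35l and those completing a count) and the promoter windows were chosen after values were seen. Members and lists were chosen with earlier results of these data known. One alternative, replicates 1 and 2 alone, was also chosen after seeing the data.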

Additional observations from a re-analysis of the deposited data

How the results depend on the processing

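The replicate block, which pairs same-numbered libraries, moved the number of other COMMD genes called between genotypes from 0 to 6 untreated and from 0 to 2 with LPS, and the number of all genes called from 0 to 2606 and 1262, from 496 to 1627 for LPS in CD18fl/fl and from 506 to 2560 for LPS in CD18-delta-CD11c BMDCs. It changed no LPS call of a member and no interaction. With a length offset beside the replicate block these counts were 3 and 1 members between genotypes and 1 for LPS in CD18fl/fl, with 1575, 901, 1750 and 2573 genes in all. DESeq2 called 3 members untreated, and 866, 313, 1976 and 1681 genes in the 4 comparisons and 1 in the interaction. A fit on all 12 libraries called 97, 54, 1149 and 1043 genes and 0 members between genotypes. Without the filter on low counts 1 gene was called between genotypes with LPS and 805 for LPS in CD18-delta-CD11c BMDCs. With replicates 1 and 2 alone, 6, 2 and 7 members were called between genotypes untreated, with LPS and for LPS in CD18fl/fl, and 1467, 588, 6039 and 2128 genes in all. The cause of these changes was not tested.

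Leaving out 1 library at a time gave 0 members in every comparison except LPS in CD18fl/fl (0 to 5), and 0 to 1 genes between genotypes with LPS, 0 to 3314 for LPS in CD18fl/fl and 0 to 1070 for LPS in CD18-delta-CD11c BMDCs. Commd3, Commd5 and Commd6 kept their sign in the genotype and LPS comparisons under all alternatives run, and the values of other members that changed sign follow. Between genotypes untreated, Commd4 was at -0.1529 (replicate block with length offset) and -0.1417 (length offset) on the log2 scale. With LPS it was at -0.4337 and -0.4156 in these fits, -0.1915 by library size scaling and -0.1631 with replicates 1 and 2 alone, Commd9 was at -0.1426, -0.1733 and -0.0526 in the first 3 of these fits, and Commd7 at -0.0896 by library size. For LPS in CD18fl/fl, library size scaling gave -0.0516 (Commd1), -0.2007 (Commd8) and -0.0931 (Commd10). For LPS in CD18-delta-CD11c BMDCs it gave -0.0351 (Commd2) and -0.2042 (Commd8), the 12-library fit gave -0.0055 (Commd8), Commd4 was at 0.0056 (RLE), 0.0018 (minimum count 50), 0.0001 (unique reads) and 0.0057 (DESeq2), and Commd10 at 0.0219 and 0.0244 with the length offset with and without the replicate block. Scaling to library size alone moved the median over all genes to -0.44 and -0.37 between genotypes and to -0.32 and -0.23 for LPS. Ranges over left-out libraries that crossed 0 were, between genotypes with LPS, -0.0127 to 0.5512 (Commd1), -0.1606 to 0.1655 (Commd4), -0.2966 to 0.4912 (Commd7) and -0.1815 to 0.4927 (Commd9), for LPS in CD18fl/fl -0.0057 to 0.4062 (Commd8), and for LPS in CD18-delta-CD11c BMDCs -0.4801 to 0.0596 (Commd1), -0.1154 to 0.1520 (Commd4), -0.2166 to 0.5509 (Commd7), -0.2095 to 0.2911 (Commd8) and -0.1294 to 0.0720 (Commd10).

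With 3 libraries a group an exact test of a single gene cannot pass 0.05. The genes most like Commd2 depended on scaling, and 3 of the 5 were also among the first 5 by library size.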
